A study of Mus musculus with 2 samples.

Results

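The genes Mbp, Mobp, Bcas1, Map4, Trp53inp2, Cenpb and S100b are described here across the oligodendrocyte lineage of the mouse optic nerve. All 7 were found among the 31053 gene rows of the data. They were chosen by their high level in injured oligodendrocyte barcodes that hold little Malat1, a long non-coding RNA retained in the nucleus, so their levels in that comparison are a description and not a test. A barcode was called Malat1-poor when Malat1 gave under 0.5% of its UMIs (unique molecular identifiers, which count captured RNA molecules) and Malat1-rich otherwise. Whether a barcode held a nucleus was not measured.

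The data are 2 droplet scRNA-seq libraries of cells from optic nerve, 1 from the site of optic nerve crush (ONC) in 5 nerves and 1 from 5 uninjured nerves. Both come from wildtype 129S1/SvlmJ mice with both sexes pooled. Nerves were collected at an age of 10 weeks, and the crushed ones had ONC 2 weeks earlier, at 8 weeks. In the labels both samples carry an age of 56 days and the crush treatment, so the uninjured library was assigned by its title. The typing of each barcode as oligodendrocyte progenitor cell (OPC), newly formed oligodendrocyte (NFO) or oligodendrocyte is that of the deposited tables.

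The uninjured library holds 959 lineage barcodes, of which 857 are oligodendrocytes (48 Malat1-poor and 809 Malat1-rich), and the injured library holds 410, with 133 Malat1-poor and 160 Malat1-rich oligodendrocytes. The Malat1-poor class is therefore 5.60% of uninjured and 45.4% of injured oligodendrocytes. It is also shallow. Median depth was 774 UMIs in Malat1-poor and 9803.5 UMIs in Malat1-rich injured oligodendrocytes, against 1168.5 and 3250 UMIs in the uninjured library. The libraries share 0 barcode sequences. Each condition is 1 library of pooled nerves, so no test between conditions was possible, barcodes are not replicates, and each 95% interval below covers counting error only. In pooled cells of a class, fewer cells with a given RNA and less RNA per cell cannot be told apart from a summed level.

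Oligodendrocytes send some mRNAs, packed in granules with RNA-binding proteins, along microtubules into their processes, where they are translated next to the forming myelin. Mbp, which encodes the cytosolic protein that compacts the myelin membrane, is the classic example of such transport. Many membrane proteins of myelin are made on the endoplasmic reticulum of the cell body.

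Since transport signals often lie in 3′ UTRs, the annotated 3′ UTRs of the genes were searched on the sense strand. Their lengths ran from 1083 bases in Bcas1 to 3058 bases in Trp53inp2, against a median of 1197 bases over 5847 tested genes. Among those genes, Trp53inp2 lay at percentile 82.6, Mobp at 81.0, Cenpb at 80.9 and Map4 at 69.8. Mbp lay at 57.5, S100b at 47.0 and Bcas1 at 46.7, so long 3′ UTRs were not shared by all members. The core CCAAGGAG of the element bound by hnRNP A2, known from Mbp, matched in the 3′ UTR of Mbp alone among the 7 genes, and in 3.94% of all annotated 3′ UTRs. The core ACTAAC bound by Quaking, an RNA-binding protein of myelinating glia, matched once each in Mbp, Mobp and Trp53inp2, and in 17.5% of all 3′ UTRs. Among 3′ UTRs within 20% of the same length, it matched in 18.6%, 35.4% and 36.7%. A match is a description and not a site.

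The Quaking cores of Mobp and Trp53inp2 are shown in their windows of 30 bases, with the core in capitals, as 2 examples of the matches. The match in Mbp is not shown. They lie at chr9:120176047-120176076 and chr2:155388320-155388349, both on the plus strand of GRCm38.
Mobp: cagttatctggcACTAACaagaactcaata
Trp53inp2: atgtcctgttacACTAACacaggtcttccc

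In GRCm38 coordinates counted from 1, Mbp (ENSMUSG00000041607) spans chr18:82475146-82585637, Mobp (ENSMUSG00000032517) chr9:120149707-120181484 and Bcas1 (ENSMUSG00000013523) chr2:170346991-170427845. Map4 (ENSMUSG00000032479) spans chr9:109931460-110083955 and Trp53inp2 (ENSMUSG00000038375) chr2:155381059-155389850. Cenpb (ENSMUSG00000068267), whose transcript has 1 exon, spans chr2:131175182-131180067, and S100b (ENSMUSG00000033208) spans chr10:76253853-76261159. On the same strand, Cenpb overlaps Spef1, Mobp overlaps Gm38642, and Map4 overlaps Gm42432, Gm42433 and Gm4734. On the opposite strand, S100b overlaps Dip2a, Mbp overlaps Rpl21-ps8, Map4 overlaps Gm43732 and Bcas1 overlaps a pair of antisense genes. Trp53inp2 alone has no overlapping gene in this annotation, so for the other 6 members reads near the overlaps are uncertain.

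Levels are given as CPM, the summed UMIs of a gene in a class per 1000000 UMIs of that class. In injured oligodendrocytes, all 7 genes had at least a 2-fold higher CPM in the Malat1-poor class, the pattern by which they were chosen, while 3.38% of 5969 tested genes (at least 50 summed UMIs) did so. Their median ratio was 6.64 and that of all tested genes 0.527. Among tested genes they took ranks 3 to 26, with Cenpb at rank 3, Trp53inp2 at 4, Mbp at 9, Bcas1 at 16, Mobp at 18, S100b at 19 and Map4 at 26. Nothing is read from these ranks, since the rule used them.

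Mbp is the member with most UMIs. It reached 64402 CPM (63020 to 65807) in Malat1-poor injured oligodendrocytes and 5261 CPM (5165 to 5359) in Malat1-rich ones, which is a ratio of 12.2 (11.9 to 12.6). In uninjured oligodendrocytes the values were 14174 CPM (13307 to 15084) and 8136 CPM (8048 to 8224). Injured Malat1-poor oligodendrocytes thus stood highest of all classes, and injured Malat1-rich ones lay below both uninjured classes. Malat1-poor NFOs, at 7246 CPM (6320 to 8270) in the uninjured and 7064 CPM (6603 to 7549) in the injured library, lay between these, and the first of them overlaps uninjured Malat1-rich oligodendrocytes. Malat1-rich NFOs, at 3324 CPM (2892 to 3803) and 3122 CPM (2897 to 3359), and uninjured OPCs, at 2918 CPM (2668 to 3186), lay lower and overlap each other. The lowest levels were in injured OPCs, with 351 CPM in 12 Malat1-rich and 172 CPM in 5 Malat1-poor barcodes.

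Mobp encodes another small basic protein of compact myelin. Its level was 9216 CPM in Malat1-poor and 1594 CPM in Malat1-rich injured oligodendrocytes, a ratio of 5.78 (5.41 to 6.18). In uninjured oligodendrocytes it was 4891 and 2880 CPM. Injured NFOs held much less, with 648 CPM (514 to 807) in the Malat1-poor and 109 CPM (70.8 to 162) in the Malat1-rich class. Mobp thus followed the same order as Mbp in oligodendrocytes. Uninjured NFOs held 1515 and 423 CPM and uninjured OPCs 829 CPM, while injured OPCs held 7 UMIs in 12 Malat1-rich barcodes and 0 UMIs in 5 Malat1-poor barcodes.

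Bcas1 marks early myelinating oligodendrocytes, and it was the one member whose level in an NFO class overlapped that in Malat1-poor injured oligodendrocytes. Malat1-rich injured NFOs held 2863 CPM (2648 to 3091) and Malat1-poor injured oligodendrocytes 2723 CPM (2445 to 3025), and these 2 highest classes overlap. Malat1-poor injured NFOs followed at 2001 CPM and Malat1-rich uninjured NFOs at 1992 CPM. Malat1-rich injured oligodendrocytes, at 410 CPM (384 to 438), were the lowest class, so the ratio within injured oligodendrocytes was 6.64 (5.85 to 7.52). The uninjured oligodendrocytes held 1084 CPM (Malat1-poor) and 538 CPM (Malat1-rich), and uninjured OPCs 747 CPM.

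Map4 encodes a microtubule-associated protein of non-neuronal cells. It had 1217 CPM (1034 to 1424) in Malat1-poor injured oligodendrocytes and 260 CPM (239 to 283) in Malat1-rich ones, a ratio of 4.68 (3.89 to 5.59), the smallest of the 7. The uninjured oligodendrocyte classes, at 214 CPM (120 to 353) and 188 CPM (175 to 202), overlap. The NFO and OPC classes ran from 65.9 to 162 CPM.

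Trp53inp2 encodes a protein that shuttles between nucleus and cytoplasm and takes part in autophagy. There were 70 UMIs in Malat1-poor injured oligodendrocytes, or 546 CPM (426 to 690), and 82 UMIs in Malat1-rich ones, or 37.7 CPM (30.0 to 46.8), a ratio of 14.5 (10.4 to 20.2). Every other class held at most 89.1 CPM, the level of Malat1-poor injured NFOs. The uninjured oligodendrocytes, at 57.0 CPM (4 UMIs) and 40.4 CPM (165 UMIs), overlap. Malat1-poor uninjured NFOs held 0 UMIs, where 3 UMIs would be 98.8 CPM.

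Cenpb encodes a protein that binds centromeric DNA, a role in the nucleus. Its level was 726 CPM (586 to 889) in Malat1-poor and 47.4 CPM (38.7 to 57.5) in Malat1-rich injured oligodendrocytes, the largest ratio of the 7 at 15.3 (11.4 to 20.5). In uninjured oligodendrocytes it was 99.8 CPM (40.1 to 206) from 7 UMIs and 65.9 CPM (58.3 to 74.3), which overlap. Malat1-poor uninjured NFOs again held 0 UMIs.

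S100b encodes a calcium-binding protein of glia, including astrocytes. It had 5860 CPM (5449 to 6295) in Malat1-poor and 1071 CPM (1028 to 1116) in Malat1-rich injured oligodendrocytes, a ratio of 5.47 (5.03 to 5.94). The next class was Malat1-poor injured NFOs, with 2131 CPM (1881 to 2404). Uninjured oligodendrocytes held 955 CPM (740 to 1213) and 666 CPM (641 to 692). Of the astrocyte markers, Gfap had 26 UMIs in Malat1-poor and 12 UMIs in Malat1-rich injured oligodendrocytes, Aqp4 had 7 UMIs in each and Gja1 had 0 and 2, and the part of astrocyte RNA in the S100b level was not tested. The 10 astrocyte genes together gave 51 UMIs (398 CPM) in Malat1-poor and 176 UMIs (80.9 CPM) in Malat1-rich injured oligodendrocytes. Most of the 176 UMIs are thus of astrocyte genes not named here. The 1 astrocyte gene with enough UMIs to be tested was at a CPM ratio of 1.76. The Malat1-poor class held 128148 UMIs in all and the Malat1-rich class 2174201. Gfap and Aqp4 were thus also higher in CPM in the Malat1-poor class, on few UMIs.

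**Figure D1:**
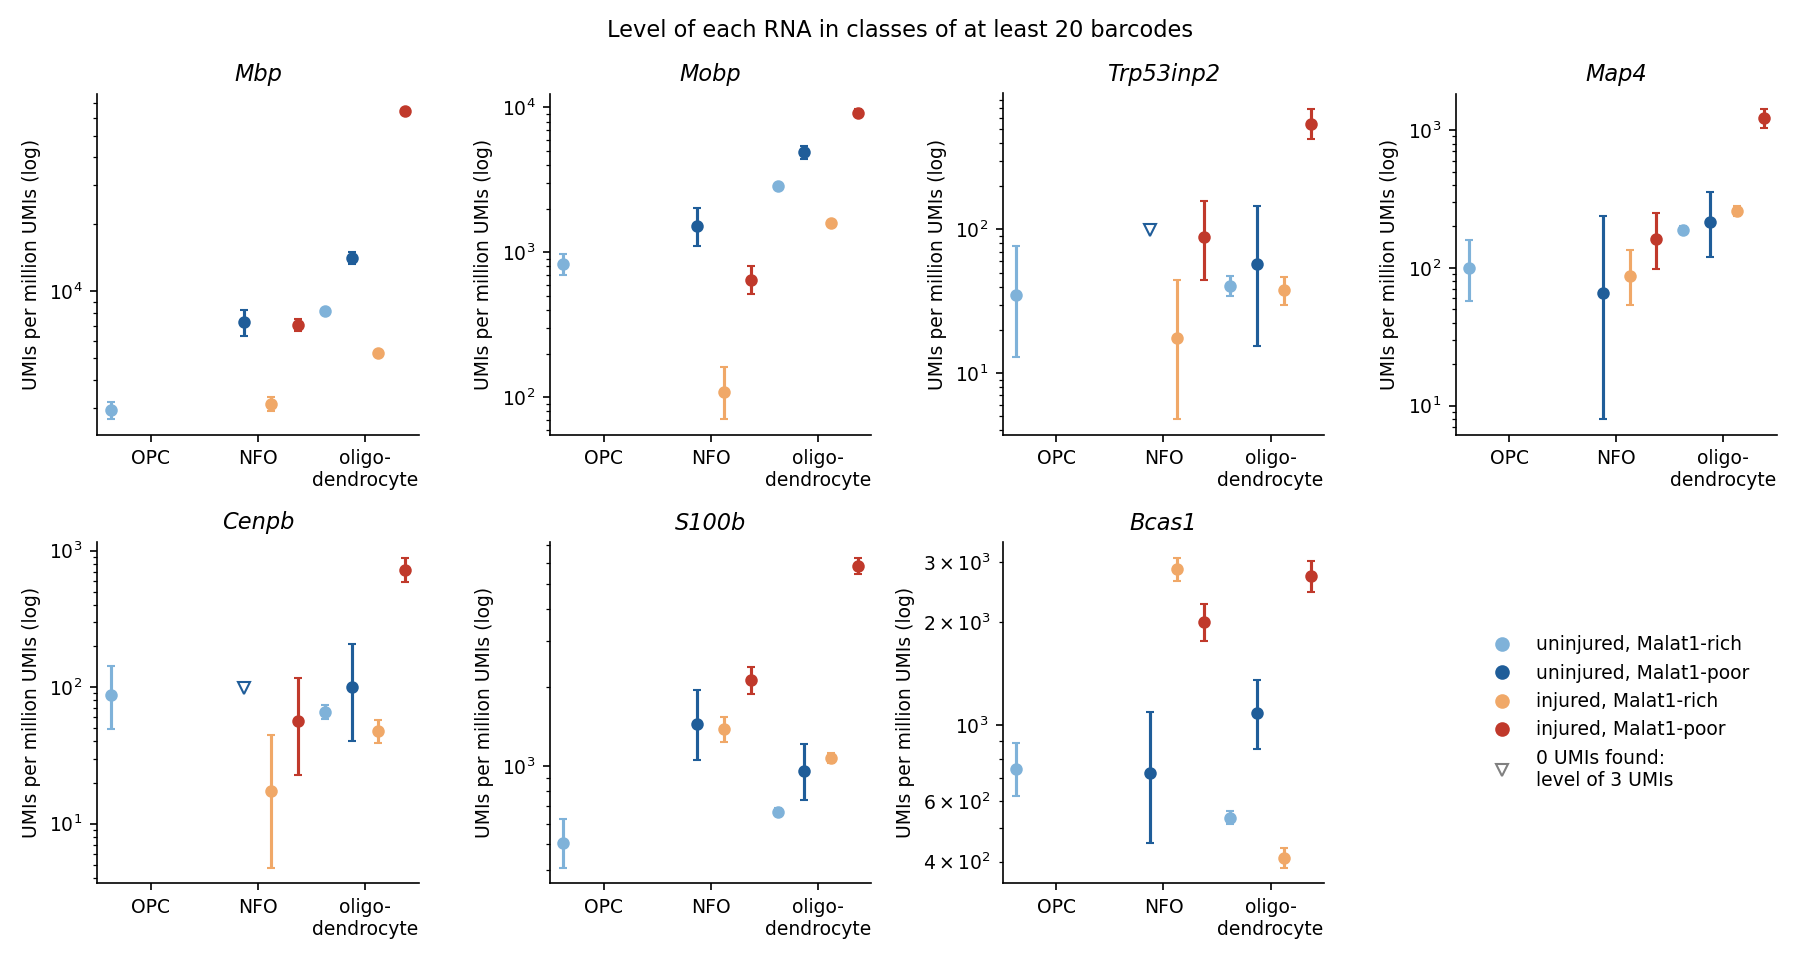
CPM of each of the 7 genes (log axis) in the classes of at least 20 barcodes, by type, library and Malat1 share; bars are exact 95% Poisson intervals, and an open triangle marks the level of 3 UMIs where a class held 0. Malat1-poor injured oligodendrocytes are the highest class for every gene but Bcas1, for which Malat1-rich injured NFOs are as high.

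Because the CPM of a gene depends on all other RNA of its class, UMIs per barcode were set beside it. A Malat1-poor injured oligodendrocyte held on average 964 UMIs and a Malat1-rich one 13589 UMIs, 14.1 times as many. Yet Mbp was at a mean of 62.1 UMIs per Malat1-poor and 71.5 UMIs per Malat1-rich barcode, a ratio of 0.868 (0.844 to 0.893). The medians lay further apart, at 26 Mbp UMIs in the Malat1-poor and 57.5 in the Malat1-rich class. The highest Malat1-poor barcode held 648 Mbp UMIs, so the near-equal means do not describe the typical barcode. Trp53inp2 was at 0.526 and 0.512 UMIs per barcode and Cenpb at 0.699 and 0.644, with intervals of the ratio that hold 1 (0.736 to 1.43 and 0.812 to 1.45).

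The other 4 members had fewer UMIs per barcode in the Malat1-poor class. The ratio of UMIs per barcode was 0.471 for Bcas1, 0.410 for Mobp, 0.388 for S100b and 0.332 for Map4. The median over the tested genes was 0.0374. A ratio of at least 0.3 was found for 33 tested genes, the 7 members among them, and a ratio of at least 0.5 for 15, which include Mbp, Trp53inp2 and Cenpb. The other 12 are Spp1, Lyz2, Ctss, Tyrobp, C1qa, C1qb and C1qc, which macrophages and microglia express, and Cyb5r3, Trak2, Oxsr1, Ccnd1 and AY036118. Of these, Cyb5r3, Trak2 and Oxsr1, were also among the 10 other genes with the highest CPM ratio, at 15.4, 11.7 and 10.7, and Trak2 encodes an adaptor that links mitochondria to kinesin. The remaining 7 of those 10 were the macrophage and microglia genes just named, with ratios from 9.98 (Ctss) to 15.8 (Spp1).

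**Figure D2:**
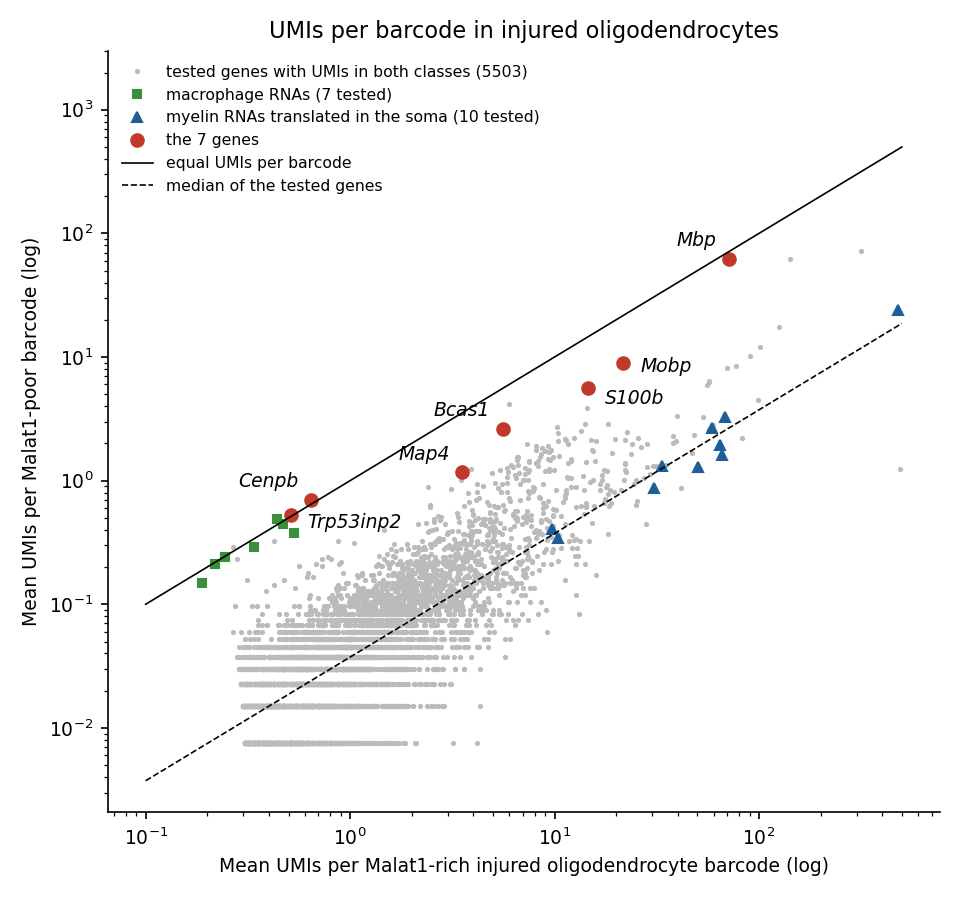
Mean UMIs per barcode in Malat1-rich (horizontal, log axis) and Malat1-poor (vertical, log axis) injured oligodendrocytes, 1 point per tested gene. Mbp, Trp53inp2 and Cenpb lie at or near the line of equal mean UMIs per barcode, with macrophage RNAs. The myelin RNAs listed as translated in the soma lie near the median of the tested genes, at a ratio of 0.0374.

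In the share of a gene's RNA, Malat1-poor barcodes held 5.57% of all UMIs of injured oligodendrocytes but 47.4% (40.3 to 54.7) of those of Cenpb, 46.1% (37.9 to 54.3) of Trp53inp2 and 41.9% (41.2 to 42.6) of Mbp. The shares of Bcas1, Mobp, S100b and Map4 were 28.1%, 25.4%, 24.4% and 21.6%. In the uninjured library, Malat1-poor barcodes held 1.69% of the UMIs of oligodendrocytes and 1.92% (Map4) to 3.35% (Bcas1) of those of the members.

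Myelin genes listed as translated at the endoplasmic reticulum or elsewhere in the cell body lay near the background. Where these RNAs are translated was not measured here. None of the 10 listed had a CPM ratio of 2 in Malat1-poor over Malat1-rich injured oligodendrocytes, and 5 of the 10 were at a ratio of 0.5 or lower, where 47.5% of all tested genes were. Their median ratio was 0.509, against 0.527 for all tested genes, so nothing particular to these genes is read from it. Mal, which encodes a membrane protein of myelin, had 3402 CPM in the Malat1-poor and 5035 CPM in the Malat1-rich class, a ratio of 0.676 (0.613 to 0.744). Cldn11, which encodes a tight junction protein of myelin, was at 0.343 (0.298 to 0.393), and Car2, which encodes a carbonic anhydrase, at 0.427 (0.376 to 0.483). A barcode held 3.28 UMIs of Mal in the Malat1-poor and 68.4 UMIs in the Malat1-rich class.

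The list of RNAs with a known or possible location in myelin or in processes holds the 7 members, and 7 others were tested. It was made with earlier results of these data known, so a place on it is not independent of them. Of these others, Dync1li2 (a dynein subunit), Fth1 (ferritin heavy chain) and Sh3gl3 had ratios over 2, at 3.51, 3.24 and 2.24. Kif1a, Padi2 and Aatk were at 0.323, 0.304 and 0.183, and Cryab at 0.863. Of the 7 others, 3 were thus at least 2-fold higher and 3 were at 0.5 or lower.

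Among 25 tested genes of RNA granules and transport, 1 was at least 2-fold higher, Kif5b, which encodes the heavy chain of conventional kinesin, with a ratio of 4.10 (3.38 to 4.96). Qk, encoding Quaking, was at 0.692, Dynll1 at 1.05 and Kif1b at 0.362. Of 13 tested microtubule genes beside Map4, none was 2-fold higher, with Stmn4 at 0.540, Stmn1 at 1.24, Mapt at 0.613 and Map1a at 0.650. Within the S100 family, 5 genes beside S100b were tested, and S100a6 was at 2.33 and S100a1 at 1.67. Malat1, used to make the classes, was at 0.0357, and Neat1, another nuclear RNA, at 0.153.

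Barcodes of the Malat1-poor injured class differed widely among themselves. Per barcode, Mbp ran from 0 through a median of 30211 to 325792 CPM, so that Mbp took up to 32.6% of the UMIs of a barcode. Mobp ran from 0 through 3984 to 50870 CPM and S100b from 0 through 4057 to 25496 CPM. In Malat1-rich injured oligodendrocytes the median of Mbp was 5594 CPM, but the highest barcode reached 211823 CPM, so the classes overlap. In uninjured oligodendrocytes no barcode exceeded 60645 CPM of Mbp.

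The CPM of the members tended to rise together among barcodes of this class. Across the 133 Malat1-poor injured oligodendrocytes, the Spearman correlation of CPM was positive for each pair, from 0.228 (Cenpb with S100b) to 0.792 (Mbp with Mobp), and Mbp with Bcas1 gave 0.766. These barcodes share 1 library and differ in depth, and the correlation of Mbp with total UMIs was -0.203. The genes were chosen by their level in this class and pairs of other genes were not compared, so the correlations are a description. With the summed immune genes described below, the members gave values from -0.112 (S100b) to 0.140 (Cenpb).

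When each barcode was thinned to 500 UMIs, at least 1 UMI of Cenpb was found in 27.1% (19.7 to 35.5) of Malat1-poor and 8.75% (4.87 to 14.2) of Malat1-rich injured oligodendrocytes, against 36.8% and 38.1% without thinning. Trp53inp2 was found in 19.5% (13.2 to 27.3) and 6.25% (3.04 to 11.2) after thinning, against 25.6% and 35.6% before. For Bcas1 the thinned shares were 60.2% and 25.0%. At least 4 of the 7 genes were found together in 56.4% (47.5 to 65.0) of thinned Malat1-poor barcodes, 17.5% (12.0 to 24.3) of Malat1-rich ones, and 21.7% (10.9 to 36.4) of Malat1-poor uninjured oligodendrocytes. Nothing is read from this order, since the first class chose the genes and other gene sets were not compared. Mbp made up 10% or more of the thinned UMIs in 38 of 133 Malat1-poor and 6 of 160 Malat1-rich injured oligodendrocytes, and in 0 of 792 Malat1-rich and 0 of 46 Malat1-poor uninjured ones.

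The level of the members changed with the Malat1 share, but not at the threshold alone. Just inside it, in the 31 injured barcodes with 0.25 to 0.5% Malat1, Mbp was at 108177 CPM, and just outside it, in the 15 with 0.5 to 0.75%, at 34843 CPM. Cenpb was at 1016 CPM (637 to 1538) inside and 746 CPM (397 to 1276) outside. Barcodes with no Malat1 UMI had less of each gene than those just inside, with 54412 CPM of Mbp and 246 CPM of Trp53inp2. From 1% Malat1 upward, Mbp stayed between 4477 and 6496 CPM. The highest levels thus lay just under the threshold and not at the lowest Malat1 share.

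**Figure D3:**
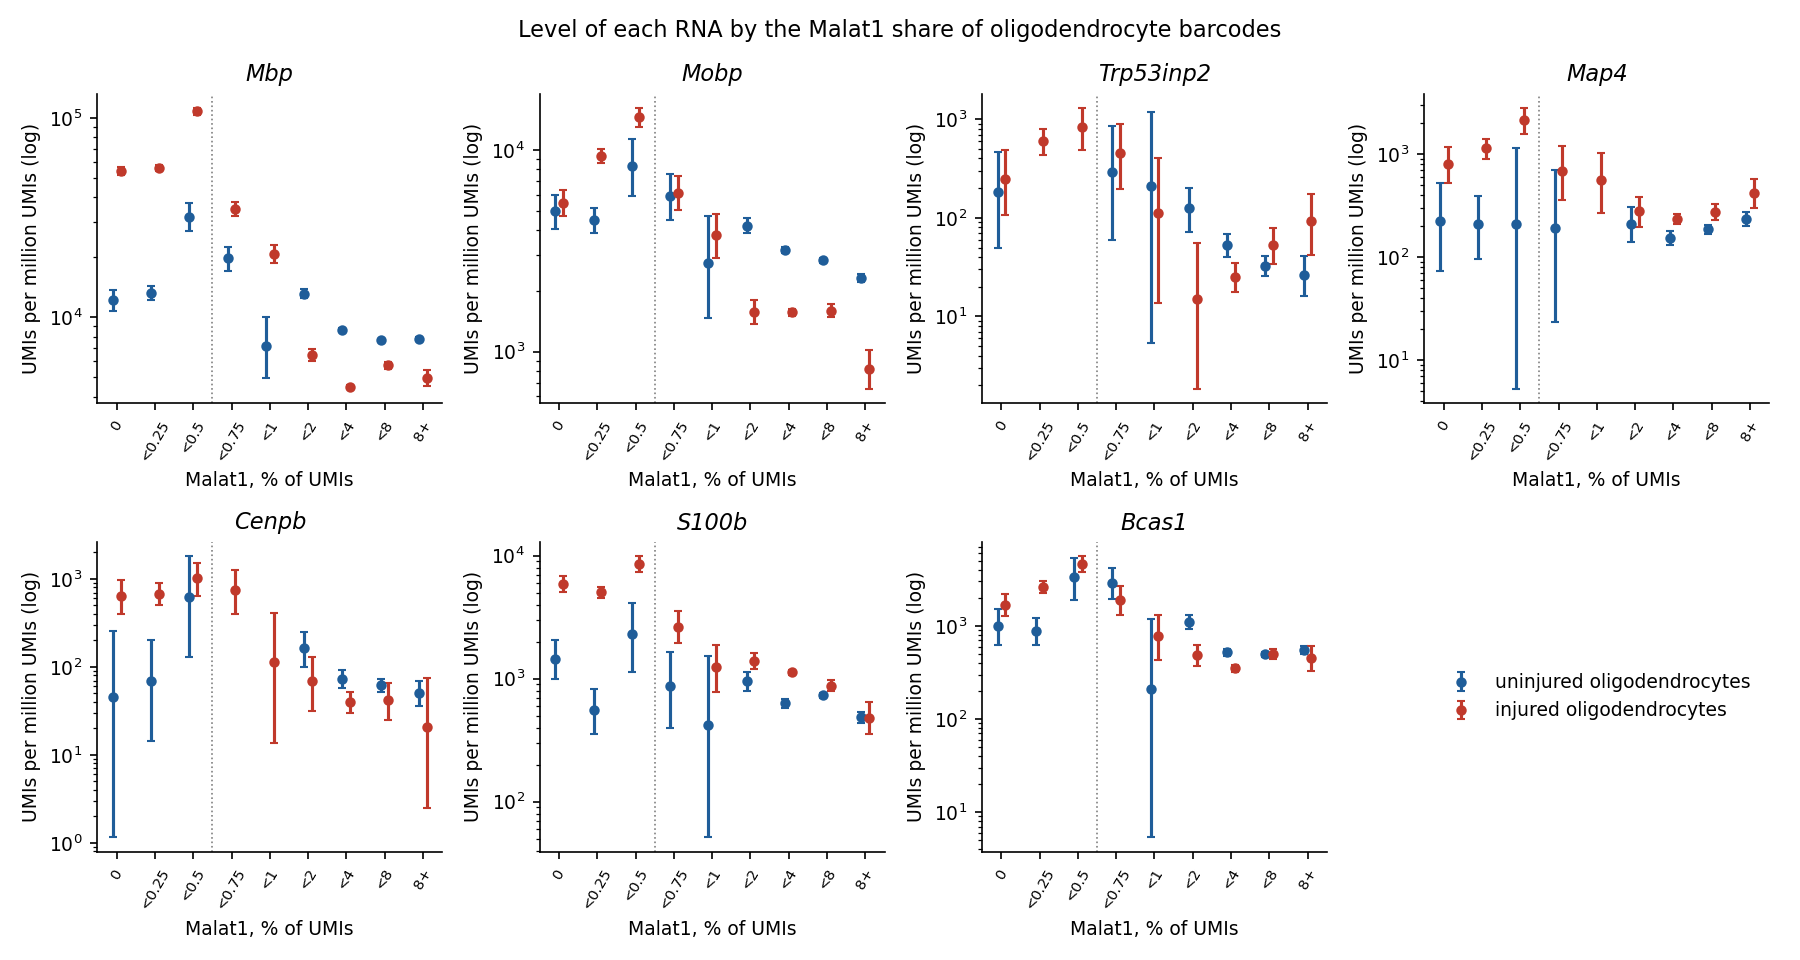
CPM of each gene (log axis) in oligodendrocytes by the Malat1 share of their barcodes, with exact 95% Poisson intervals; bins without a UMI of the gene are not drawn and the dotted line is the threshold of 0.5%. In injured oligodendrocytes each gene is highest between 0.25 and 0.5% Malat1.

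Depth moved with the result as well. Among injured oligodendrocytes of 500 to 1000 UMIs, Mbp was at 75776 CPM in 101 Malat1-poor and 52193 CPM in 32 Malat1-rich barcodes, a ratio of 1.45. The ratios of the other members in these barcodes were 1.18 for Cenpb, 1.33 for Trp53inp2 and Mobp, 1.38 for Map4 and 1.58 for Bcas1, so S100b, at 2.13, was the only member at 2-fold. This split was chosen after seeing the data. In these shallow barcodes the CPM intervals of Cenpb, Trp53inp2 and Map4 overlap between the classes, and those of the other 4 genes do not.

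Above 1000 UMIs the classes parted for some members, on fewer barcodes. At 1000 to 2000 UMIs, Mbp was at 65778 CPM (62766 to 68896) in 21 Malat1-poor and 7092 CPM (5777 to 8618) in 10 Malat1-rich injured oligodendrocytes, and S100b at 5986 and 351 CPM. The intervals of Mobp and Cenpb did not overlap either, but those of 3 members did. These were Bcas1 at 1763 CPM (1300 to 2337) and 913 CPM (486 to 1561), Map4 at 771 CPM (477 to 1179) and 562 CPM (243 to 1107), and Trp53inp2 at 331 CPM (151 to 627) and 70.2 CPM (1.78 to 391). At 2000 to 5000 UMIs, Mbp was at 35432 CPM in 11 Malat1-poor and 7350 CPM in 28 Malat1-rich barcodes, and Cenpb at 374 CPM (187 to 670) and 29.4 CPM (6.06 to 85.9), and of the 7 genes Trp53inp2 alone had overlapping intervals, at 272 CPM (118 to 537) and 78.4 CPM (33.8 to 154). With all barcodes of 500 to 2000 UMIs together, 2 of the 7 genes, Mbp (2.19) and S100b (3.31), were at least 2-fold higher. In the uninjured library, Mbp at 500 to 1000 UMIs was 18588 CPM in 17 Malat1-poor and 16390 CPM in 121 Malat1-rich barcodes, so shallow uninjured barcodes held less Mbp than shallow injured ones in both classes. The separate parts of depth and Malat1 share were not tested.

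**Figure D4:**
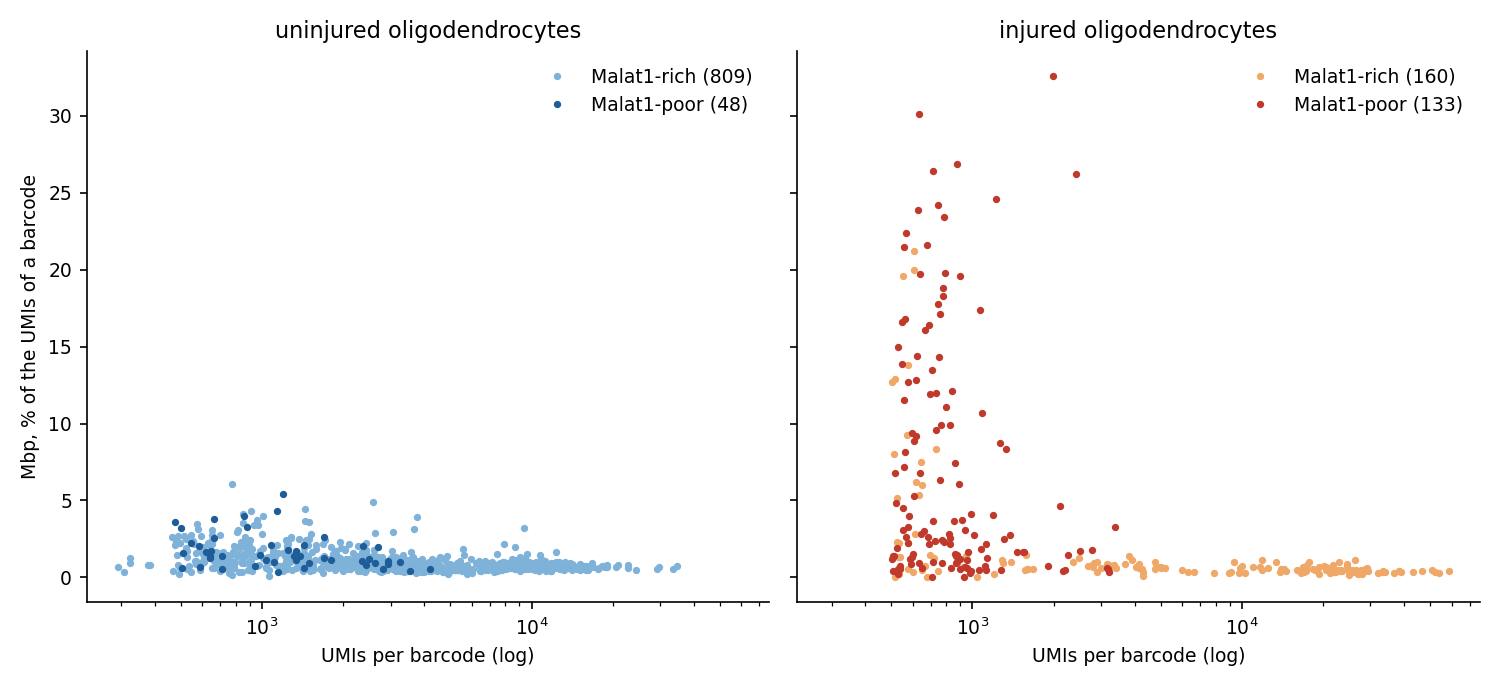
Share of Mbp in the UMIs of each oligodendrocyte barcode (vertical, percent) by its UMIs (horizontal, log axis), for the uninjured (left) and injured (right) library, coloured by Malat1 share. Barcodes with more than 10% Mbp are found only in the injured library and lie at low depth, and they include Malat1-rich ones.

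The RNAs listed for macrophages and microglia also had a higher summed CPM in the Malat1-poor injured class. Of the 20 macrophage and microglia genes listed, 19 had a UMI in Malat1-poor injured oligodendrocytes (P2ry12 was at 0) and all 20 in Malat1-rich ones, and their sum was 11479 and 5943 CPM, with 1 to 75 and 0 to 509 UMIs per barcode. Most of this sum was Apoe, with 830 of 1471 UMIs in the Malat1-poor and 9133 of 12921 UMIs in the Malat1-rich class. The sum is thus not a measure of macrophage RNA alone. In uninjured oligodendrocytes 6 of 20 (Malat1-poor) and 19 of 20 (Malat1-rich) had a UMI, for a sum of 670 and 550 CPM and up to 5 and 59 UMIs per barcode. Among the defining markers, Lyz2, Spp1, C1qa, C1qc, Tyrobp and Aif1 were at 0 in Malat1-poor uninjured oligodendrocytes, and Spp1 in Malat1-rich ones. For 10 of them that are more specific to these cells (Lyz2, Ctss, Spp1, C1qa, C1qb, C1qc, Cd68, Cd74, Tyrobp and Aif1), the sum was 2489 CPM in Malat1-poor and 195 CPM in Malat1-rich injured oligodendrocytes.

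Per barcode, these 10 genes gave a like number of UMIs in each larger injured class, with 2.40 in Malat1-poor and 2.64 in Malat1-rich oligodendrocytes, and 2.87 and 2.43 in the corresponding NFOs. Mbp was at 62.1 and 71.5 UMIs per barcode in oligodendrocytes and 11.3 and 31.0 in NFOs. In Malat1-rich OPCs, Mbp was at 2.58 and the 10 genes at 1.92. The members differed in this, since Mobp was at 8.88 and 21.7 in oligodendrocytes but 1.04 and 1.09 in NFOs. In the 27 Malat1-poor and 21 Malat1-rich injured oligodendrocytes with no UMI of the 10 genes, the ratio was 6.99 for Mbp, 3.86 for S100b, 3.52 for Mobp, 3.44 for Bcas1 and 2.99 for Map4, while Trp53inp2 and Cenpb had too few UMIs. The part of macrophage or free RNA in the result was not tested beyond these values.

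In uninjured oligodendrocytes, which the choice of genes did not use, 1 of 7 members was at least 2-fold higher in the Malat1-poor class, Bcas1 at 2.02 (1.58 to 2.53), where 7.67% of 7526 tested genes were. None of the members was at 0.5 or lower, where 34.6% of tested genes were. Mbp was at 1.74 (1.63 to 1.86), Mobp at 1.70 (1.52 to 1.89) and S100b at 1.43 (1.11 to 1.83). The intervals of Cenpb (1.51), Trp53inp2 (1.41) and Map4 (1.1) hold 1, on 7, 4 and 15 UMIs in the Malat1-poor class. The median ratio was 1.51 for the members and 0.765 for all tested genes. For these 3 members no direction is read, and Map4 was at 0.597 in barcodes of 500 to 2000 UMIs and Cenpb at 0.920 with a Malat1 threshold of 0.25%. In barcodes of 500 to 1000 UMIs, the Malat1-poor class held less than the Malat1-rich class of Bcas1 (1371 CPM, 783 to 2226, against 2039 CPM, 1754 to 2357), of Map4 (171 against 401 CPM) and of Cenpb (85.7 against 111 CPM), with overlapping intervals for each, so the call of Bcas1 did not hold among shallow barcodes. In UMIs per barcode, the ratio was 0.505 for Mbp and 0.222 for the median tested gene.

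In injured NFOs, 4 of the 7 members had enough UMIs. Of these, 2 were at least 2-fold higher in Malat1-poor NFOs, where 3.06% of 1308 tested genes were, Mobp at 5.92 (3.74 to 9.69) and Mbp at 2.26 (2.05 to 2.50). With the mean of CPM per barcode in place of summed UMIs, Mobp was at 1.47 and Mbp at 0.981, so both calls and the direction of Mbp rest on how barcodes are weighted. S100b was at 1.54 (1.31 to 1.83), and Bcas1 at 0.699 (0.601 to 0.810) was lower in the Malat1-poor class. Map4 had 20 UMIs in each class, Trp53inp2 11 and 4, and Cenpb 7 and 4.

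Between the libraries, 6 of the 7 members were at least 2-fold higher in injured than in uninjured Malat1-poor oligodendrocytes, where 12.2% of 510 tested genes were. The first class is the one by which the genes were chosen, so nothing is read from this count. Trp53inp2 was at 9.58 (3.58 to 36.1), Cenpb at 7.27 (3.39 to 18.6), S100b at 6.13 (4.77 to 8.00), Map4 at 5.69 (3.35 to 10.4), Mbp at 4.54 (4.25 to 4.86), Bcas1 at 2.51 (1.96 to 3.26) and Mobp at 1.88 (1.67 to 2.13). In barcodes without UMIs of the 10 immune genes, the ratio of Mbp was 2.57, of Bcas1 1.29 and of Mobp 1.12, and that of S100b 5.89. The ratio of S100b there thus lay within its interval over all barcodes, and those of Mbp, Bcas1 and Mobp did not.

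In Malat1-rich oligodendrocytes, 0 of 7 members were at least 2-fold higher after injury, where 6.19% of 8551 tested genes were. S100b at 1.61 (1.52 to 1.70) and Map4 at 1.38 (1.24 to 1.54) were higher. Mobp at 0.554 (0.533 to 0.575), Mbp at 0.647 (0.633 to 0.661), Cenpb at 0.718 (0.567 to 0.905) and Bcas1 at 0.763 (0.705 to 0.825) were lower in CPM, and Trp53inp2 was at 0.932 (0.707 to 1.22). The downward direction turned for Mbp (1.51), Cenpb (2.27) and Bcas1 (1.01) with the mean of CPM per barcode, which gives shallow barcodes equal weight, and Trp53inp2 was then at 2.49. Mobp turned to 1.66 in barcodes of 500 to 2000 UMIs and to 2.05 in those of 500 to 1000 UMIs. In UMIs per barcode, all 7 members were higher in the injured class, with ratios from 1.49 (Mobp) to 4.33 (S100b). Mbp was at 1.74, Cenpb at 1.94 and Bcas1 at 2.06, where the median over the tested genes was 2.84.

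Last, Malat1-poor injured oligodendrocytes were set against the 77 Malat1-poor injured NFOs, of which the median depth was 1137 UMIs. There, 6 of the 7 members were at least 2-fold higher in the oligodendrocytes, where 15.3% of 753 tested genes were, and the genes were again chosen by the first class. Mobp was at 14.2 (11.3 to 18.1), Cenpb at 12.8 (5.97 to 32.7), Mbp at 9.12 (8.50 to 9.79), Map4 at 7.51 (4.70 to 12.6), Trp53inp2 at 6.13 (3.22 to 12.8) and S100b at 2.75 (2.39 to 3.18). Bcas1 was at 1.36 (1.15 to 1.61). In CPM, Malat1-poor NFOs thus held less of each member than Malat1-poor oligodendrocytes of the same library, except that Bcas1 turned to 0.518 in barcodes with 500 genes or more and a mitochondrial share of 10% or less. In UMIs per barcode, the NFOs held more Bcas1, with 3.21 against 2.62 in the oligodendrocytes, a ratio of 0.818 (0.693 to 0.967).

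Profiles were compared by the correlation of log2 CPM (with 50 CPM added) with the mean of the members over the 8 classes of at least 20 barcodes. Only the 309 genes with at least 50 UMIs in Malat1-poor injured oligodendrocytes were compared. The members were chosen by that class, so the list is a description. The most similar of the other genes were Dync1li2 (0.953), Tpt1 (0.944), Kif5b (0.940), Spop (0.926), Zfp91 (0.894), Plekhb1 (0.873), Anp32b (0.864), Pkp4 (0.857), Pcnp (0.852) and Aes (0.851). Among the members the value ran from 0.446 for Bcas1 to 0.963 for Mbp, with Mobp at 0.742 and S100b at 0.784. Bcas1, Mobp and S100b were thus less like the mean profile than each of these 10 other genes.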

How the data were processed

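Droplet 3′ libraries of 1 injured and 1 uninjured sample were aligned to mm10 and counted with Cell Ranger 1.3 and normalized with Seurat 4.0.3, as the submitters' processing notes and the study's methods give. The authors deposited, for barcodes they typed as OPC, NFO or oligodendrocyte, the natural log of 1 plus 10000 times the share of a gene in a barcode's UMIs. The table of both libraries together was not used. To recover UMIs, the log was undone and every value of a barcode was divided by its smallest value above 0, which gave whole numbers within 0.001 in 100% of barcodes. Classes were library, type and Malat1 share (threshold 0.5%). UMIs were summed per class and divided by the class total. Genes with at least 50 summed UMIs over both classes were tested for a ratio of at least 2, without p-values. CPM have exact Poisson, shares exact binomial (Clopper-Pearson) and ratios exact conditional 95% intervals. Doublets were not called again. The genes named are the members, the 10 other genes with the highest ratio in the choosing comparison, the 10 most similar in profile, and up to 4 of each list with most UMIs, with others, named beside a count, chosen after their values were seen. Members and lists were chosen with earlier results of these data known. The 3′ UTRs come from GENCODE vM21 (30438 of 31053 names matched). Scripts were tested on simulated data and used Python, numpy, scipy and pandas. The alternatives were 15 planned settings and 1 added after seeing the data. A result for 1 listed gene is not reported here.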

Additional observations from a re-analysis of the deposited data

Results flagged for a closer look

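In CPM, the injury comparison pointed in opposite directions in Malat1-poor and Malat1-rich oligodendrocytes for 4 of the 7 genes, each beyond its counting interval. The ratio of injured over uninjured CPM was 4.54 in the Malat1-poor and 0.647 in the Malat1-rich class for Mbp, 1.88 and 0.554 for Mobp, 7.27 and 0.718 for Cenpb, and 2.51 and 0.763 for Bcas1. In the Malat1-rich class none of these directions was firm, since each turned under an alternative, with the mean of CPM per barcode for Mbp, Cenpb and Bcas1, and in barcodes of 500 to 2000 UMIs for Mobp (1.66). The CPM of Bcas1 was also higher in Malat1-poor than Malat1-rich injured oligodendrocytes (ratio 6.64) and lower in Malat1-poor than Malat1-rich injured NFOs (ratio 0.699). Its UMIs per barcode were lower in the Malat1-poor class of both types, with ratios of 0.471 and 0.113. With 1 library per condition, these differences between classes were not tested.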

How the results depend on the processing

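No paired analysis was possible because each condition has 1 library. In injured oligodendrocytes the count of members at least 2-fold higher in the Malat1-poor class was 7, and it was 2 in barcodes of 500 to 2000 UMIs and 1 in barcodes of 500 to 1000 UMIs; under the other alternatives it was 5 to 7. In uninjured oligodendrocytes the count of 1 became 0 with a Malat1 threshold of 0.25%, with the nuclear RNA list, with the mean of CPM per barcode, with thinning to 500 UMIs, after dropping the top barcode of each gene and at 3-fold, 2 with a threshold of 1%, 3 with ratios divided by their median and 4 at 1.5-fold. In injured NFOs the count of 2 became 0 with the mean per barcode or thinning, 4 with at least 10 summed UMIs, and 1 with at least 200 summed UMIs or at 3-fold. Between libraries, the 6 in Malat1-poor oligodendrocytes became 2 in barcodes with no UMI of the 10 immune genes (4 members tested) and 3 with at least 200 summed UMIs (4 tested), and the 0 in Malat1-rich ones became 3 with the mean per barcode, with thinning or in barcodes of 500 to 2000 UMIs, 4 in those of 500 to 1000 UMIs, and 1 in those without immune UMIs or at 1.5-fold. The 6 against NFOs became 3 under the stricter filter on barcodes (500 genes or more, mitochondrial share of 10% or less; 5 tested) and 3 with at least 200 summed UMIs (4 tested). Fewer members tested is part of the fall where a number tested is given, and otherwise the cause was not tested.

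Ratios that turned although their counting interval excluded 1 were Mbp between Malat1-poor and Malat1-rich NFOs (0.981 with the mean per barcode, 0.907 thinned), Bcas1 against NFOs (0.518 under the stricter filter), and, between libraries in Malat1-rich oligodendrocytes, Mbp (1.51 with the mean per barcode, 1.56 thinned, 2.37 at 500 to 2000 UMIs, 3.18 at 500 to 1000), Mobp (1.66 at 500 to 2000, 2.05 at 500 to 1000), Cenpb (2.27 with the mean, 3.19 thinned) and Bcas1 (1.01 with the mean, 1.31 at 500 to 2000, 1.16 at 500 to 1000). Ratios whose interval held 1 also crossed it: Trp53inp2 in that comparison (0.932; 2.49 with the mean, 1.13 with a threshold of 0.25%, 1.12 without immune UMIs) and, in uninjured oligodendrocytes, Map4 (0.597 at 500 to 2000 UMIs, 0.757 thinned, 0.827 with the mean) and Cenpb (1.51; 0.920 with a threshold of 0.25%). Of 393 alternative values of single ratios, 372 stayed on the same side of 1 (249 within the counting interval and 123 outside it), 14 turned, and 7 crossed 1 where the interval held 1. Settings that left a class under 20 barcodes gave no value, and depth limits Trp53inp2 and Cenpb most, with 4 and 7 UMIs in Malat1-poor uninjured oligodendrocytes.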
